A study of Homo sapiens with 12 samples.

Results

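The 10 genes described here handle heme, iron and lipid peroxides: HMOX1, FTL, FTH1, TFRC, SLC40A1, GPX4, AIFM2, DHODH, GCH1 and ACSL4. They were chosen by name from the 58676 genes of a deposited FPKM table (fragments corrected for gene length and for library depth). All 10 averaged at least 1 FPKM and were among the 12194 genes tested. The cells were A549, an established human lung carcinoma line, as a control line (genotype label Control1) and as lines labelled NFE2L1 KO1 and NFE2L1 KO2. NFE2L1 encodes a transcription factor whose protein is kept scarce by proteasomal degradation and which, once stabilised by an inhibitor, raises the genes of proteasome subunits. For 4 h the 3 lines were given DMSO vehicle or 200 nM bortezomib, an inhibitor of the proteasome, which makes 6 groups of 2 libraries. The labels do not say whether a knockout line is 1 clone, where the gene was cut, or whether libraries of a group came from separate cultures, so p-values measure the spread between these libraries, which may be technical.

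Ferroptosis is a form of cell death driven by iron and by peroxidation of polyunsaturated membrane lipids. Heme oxygenase releases iron from heme, ferritin stores it, the transferrin receptor brings it in and ferroportin lets it out. GPX4 reduces lipid peroxides with glutathione, while AIFM2, DHODH and GCH1 supply radical-trapping quinols or tetrahydrobiopterin, and ACSL4 makes the lipids that are oxidised. Ferritin, ferroportin and transferrin receptor messages carry iron-responsive elements, short hairpins through which iron regulatory proteins control translation or stability, so that protein amounts need not follow the RNA measured here.

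The libraries held 13211608 to 23819258 assigned reads. Of the 2 libraries in each group, 1 has the suffix R2 in its title and the other has R1 (knockout lines) or no suffix (control line), and values given in pairs below have the R2 library second. Mitochondrially encoded genes took 12.31% to 19.29% of reads in the 6 R2 libraries and 5.44% to 6.8% in the other 6. NFE2L1 itself was at 9.82% to 24.8% of the matched control level in KO1 and at 22.3% to 33.7% in KO2. All 6 epithelial markers examined had a mean FPKM of at least 1, and the markers of alveolar type 2 cells, leukocytes, macrophages, erythroid, endothelial and hepatic cells summed to at most 0.24 FPKM in any library, with SFTPA1, CD163 and HAMP among those at 0. Of the 3 fibroblast markers 1, the collagen gene COL1A1, averaged at least 1 FPKM, and their sum was 1.57 to 5.42 FPKM in vehicle and 6.23 to 23.5 FPKM in bortezomib libraries. Their part in the bortezomib differences below was not tested.

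The hairpins are shown because they set 4 of the 10 genes apart from the other 6. The search used the untranslated regions of GENCODE 29 transcripts (GRCh38) and asked for a C, 5 bases, the loop CAGTGN with a last base other than G, and 5 bases that pair with the first 5, with G and T allowed as a pair. It found 1 match in the 5′ untranslated region of FTH1, FTL and SLC40A1 and 4 matches in the 3′ untranslated region of TFRC. Over all genes with such a region, 0.116% of 19014 had a match in the 5′ region and 0.516% of 19565 in the 3′ region. The sequences are written 5′ to 3′ on the message strand in DNA letters, with the loop in capitals.
FTH1, 5′ region, chr11:61967576-61967600, minus strand: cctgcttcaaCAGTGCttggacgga
FTL, 5′ region, chr19:48965337-48965361, plus strand: cttgcttcaaCAGTGTttggacgga
SLC40A1, 5′ region, chr2:189580663-189580687, minus strand: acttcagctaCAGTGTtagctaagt
TFRC, 3′ region, chr3:196050465-196050489, minus strand: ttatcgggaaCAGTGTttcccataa
TFRC, 3′ region, chr3:196050512-196050536, minus strand: gtatcggagaCAGTGAtctccatat
TFRC, 3′ region, chr3:196050577-196050601, minus strand: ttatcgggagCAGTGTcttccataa
TFRC, 3′ region, chr3:196050981-196051005, minus strand: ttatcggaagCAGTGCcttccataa
A match describes letters and not binding.

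RefSeq promoters (GRCh38.p14, 250 bases before to 50 after the start) were matched for 7 of the genes, not for HMOX1, FTH1 and GCH1. The motif TGACNNNGC, the core of the antioxidant response element to which NFE2L1 and NFE2L2 bind with small MAF proteins, was sought on both strands. Of the 7 genes 1 had a promoter with it, AIFM2, and GPX4 was searched in more than 1 promoter. Of all 35116 promoters of the same length 13.3% held it, a share of promoters and not of genes. The window below is on the gene's strand, from 32 to 4 bases before the RefSeq start, and its capitals mark the match, which reads TGACNNNGC on the opposite strand.
AIFM2, chr10:70132829-70132857, minus strand: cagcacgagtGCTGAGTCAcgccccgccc
No match says only that these letters are not in this window, and enhancers farther from the start were not searched.

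Expression per length differed widely between the genes. FTL, the ferritin light chain, had the highest mean over the 12 libraries (3651 FPKM), followed by FTH1, the heavy chain (229 FPKM), TFRC (90.4 FPKM), HMOX1 (65.5 FPKM) and GPX4 (31.7 FPKM). FTL was above the other 9 genes in all 12 libraries, but the order of the next 4 differed between libraries. TFRC was above FTH1 in the R2 control vehicle library (156 against 149 FPKM), HMOX1 above TFRC in both unnumbered control libraries, and GPX4 above HMOX1 in KO1 vehicle R1 (43.1 against 20.7 FPKM). AIFM2 (11.8 FPKM) and ACSL4 (10.7 FPKM) were lower, and their ranges over the libraries overlapped. DHODH (3.36 FPKM), GCH1 (2.14 FPKM) and SLC40A1 (2.10 FPKM) were the lowest and also overlapped. The lowest read numbers behind a value were 34 for GCH1, 72 for SLC40A1 and 214 for DHODH, against at least 447 for each of the other 7.

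**Figure D1:**
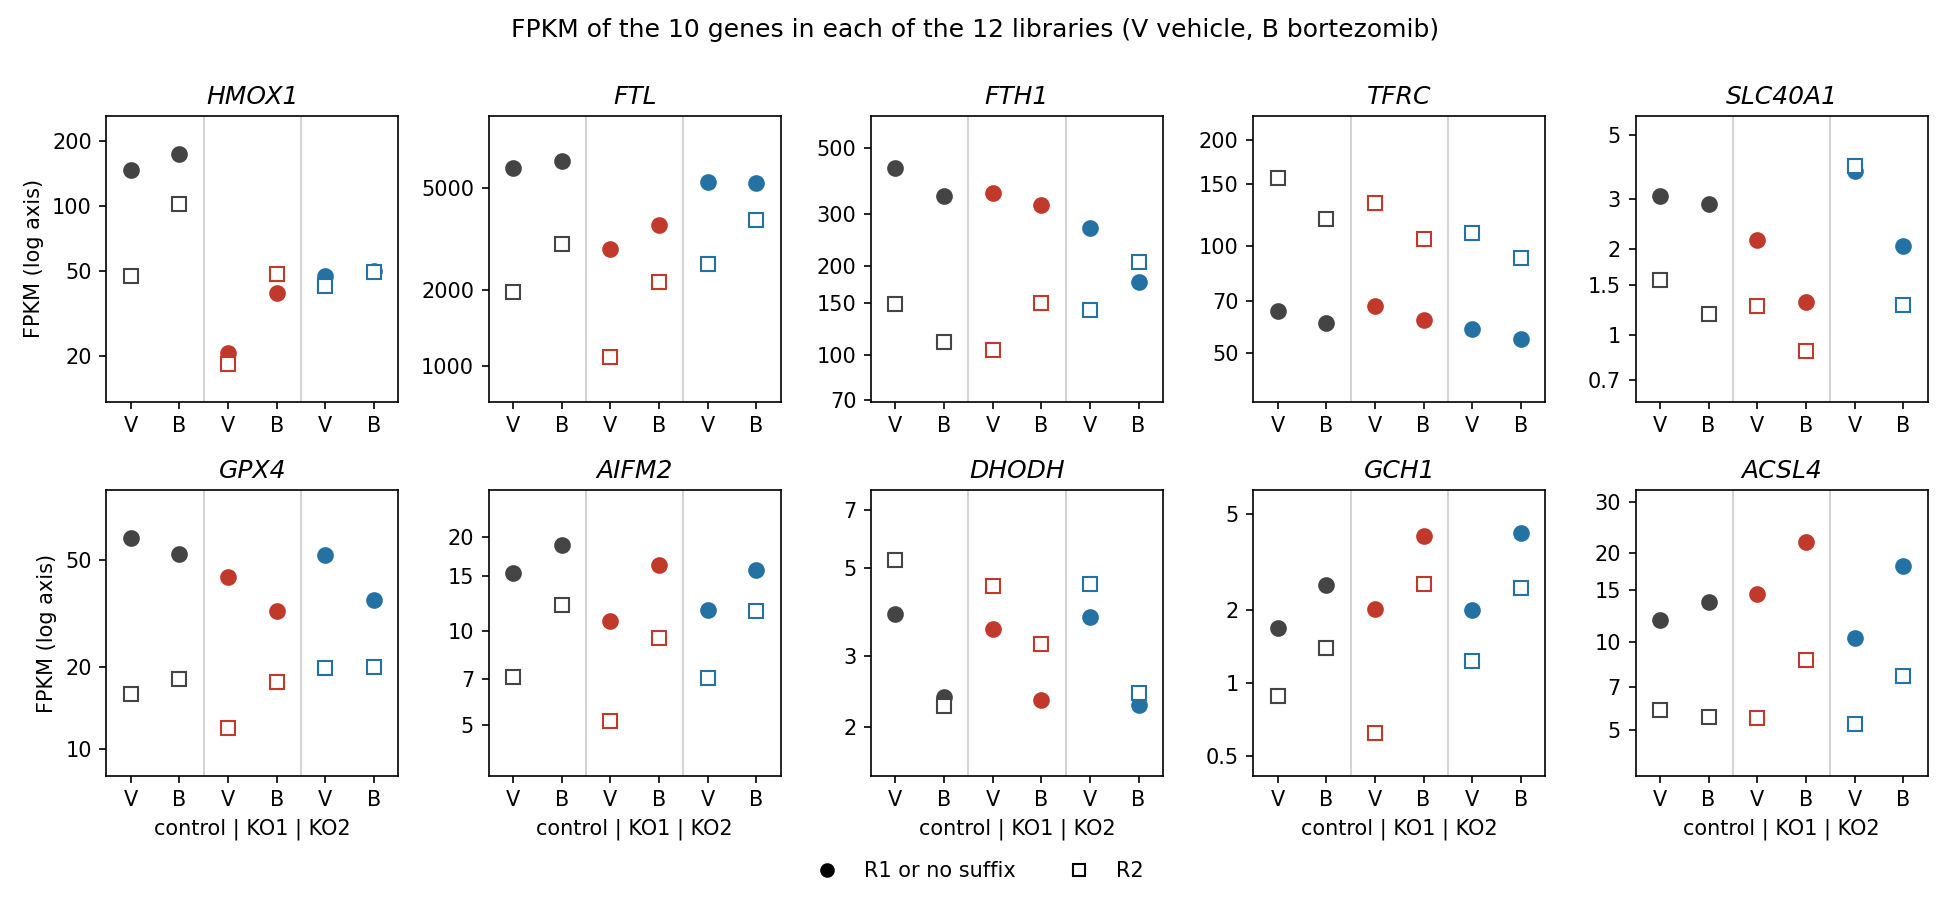
Each panel plots one gene's FPKM on a log axis against group, with vehicle (V) and bortezomib (B) for the control line (grey), KO1 (red) and KO2 (blue). Filled circles are the R1 or unnumbered library and open squares the R2 library. HMOX1 in KO1 with vehicle (20.7 and 18.5 FPKM) lies below its 10 other libraries, and TFRC is higher in R2 than in its partner in every group while FTL, GPX4, AIFM2, GCH1 and ACSL4 are lower.

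Bortezomib was followed by higher RNA of HMOX1, AIFM2 and GCH1 and by lower RNA of DHODH, SLC40A1 and TFRC in each of the 6 pairs of matching line and suffix class. A direction shared by all 6 pairs was seen for 6 of the 10 genes and for 48.5% of all genes tested. In limma's fit with 1 mean per group and no replicate term, 1 of the 10 genes (DHODH, lower) passed an adjusted p of 0.05 over the 3 lines together, against 11.6% of all genes tested, and 3 of the 10 reached 0.05 before adjustment, against 26.9%. With the title suffix as a replicate block, 7 of the 10 passed, 5 higher (HMOX1, FTL, AIFM2, GCH1, ACSL4) and 2 lower (DHODH, SLC40A1), against 54.9% of all genes tested. In bulk RNA, a change in the RNA per cell and a change in which cells were present cannot be told apart. The median log2 difference of the 10 genes was 0.17 and that of all genes tested was -0.01. For 6 of the 10 genes the difference between suffix classes was larger than that between treatments, so each value is given with both fits.

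HMOX1, which degrades heme to iron, biliverdin and carbon monoxide, stood at 147 and 47.1 FPKM in the control line with vehicle and at 174 and 102 FPKM with bortezomib. In KO1 it went from 20.7 and 18.5 FPKM to 39.4 and 48.4 FPKM. In KO2 it stood at 47.1 and 42.5 FPKM with vehicle and at 50.0 and 49.4 FPKM with bortezomib. The treated and untreated libraries did not overlap within KO1 or within KO2, and how often this occurred among all genes tested is not reported here. In the control line the unnumbered vehicle library was above the R2 bortezomib library. The ratio of bortezomib to vehicle was 1.91 and 2.61 in KO1, 1.19 and 2.17 in the control line and 1.06 and 1.16 in KO2. Over the 3 lines the log2 difference was 0.65 ± 0.31 (SE), with a limma adjusted p of 0.215 without and 0.00171 with the replicate block. A simpler block with R2 against all other libraries, called the block on R2, gave 0.0247. In that fit, leaving out the unnumbered control bortezomib library, KO1 vehicle R1, KO1 bortezomib R2, KO2 vehicle R1 or KO2 bortezomib R2 ended the call (limma adjusted p 0.064 to 0.0737).

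The ferritin chains are described in turn, and a difference between them was not tested. FTL stood at 5978 and 1964 FPKM in the control line with vehicle and 6385 and 3011 FPKM with bortezomib. It went from 2880 and 1093 to 3588 and 2140 FPKM in KO1, and from 5276 and 2515 to 5222 and 3760 FPKM in KO2. It was thus higher with bortezomib in 5 of 6 pairs, and in each line the R2 pair showed the larger rise. The log2 difference was 0.43 ± 0.45 (SE), with a limma adjusted p of 0.607 without and 0.0209 with the block. The call held in 4 of 12 fits with the block on R2 that each left out 1 library, namely those without the unnumbered control vehicle library, KO1 vehicle R1, KO1 bortezomib R1 or KO2 bortezomib R1 (limma adjusted p 0.00904 to 0.108 over the 12).

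FTH1, the chain that oxidises iron for storage, stood at 429 and 149 FPKM in the control line with vehicle and at 345 and 110 FPKM with bortezomib. Its values were 352 and 104 against 322 and 150 FPKM in KO1, and 269 and 142 against 176 and 206 FPKM in KO2. It was lower in both control pairs and moved in opposite directions in the 2 pairs of each knockout line. The log2 difference of -0.07 had a limma adjusted p of 0.949 without and 0.8 with the block. The ratio of FTL to FTH1 in FPKM was 13.9 and 13.2 in the control line with vehicle and 18.5 and 27.3 with bortezomib. It was 8.19 and 10.5 against 11.1 and 14.2 in KO1, and 19.6 and 17.7 against 29.7 and 18.2 in KO2, so it was higher with bortezomib in all 6 pairs. Counting can divide ferritin reads between a gene and its near-identical pseudogenes. Of the reads assigned to FTH1 and its 25 pseudogenes together, the pseudogenes held 0.409% to 0.923%, and for FTL and its 16 pseudogenes that share was 0.021% to 0.174%. FTH1 also lies opposite BEST1, whose reads cannot be told apart from it where they overlap.

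The RNAs of TFRC (import of transferrin-bound iron) and SLC40A1 (iron export) were both lower with bortezomib in every pair. That of SLC40A1 passed the test with the block. The importer genes SLC39A14 and SLC39A8, given further below, moved in opposite directions. TFRC, the receptor for transferrin-bound iron, went from 65.9 and 156 to 60.7 and 120 FPKM in the control line. The change was from 67.7 and 133 to 61.9 and 105 FPKM in KO1 and from 58.4 and 109 to 54.6 and 92.7 FPKM in KO2. TFRC was thus lower in all 6 pairs, at 77.1% to 93.6% of vehicle, and the R2 libraries stood well above their partners in every group. The log2 difference of -0.21 ± 0.37 (SE) had a limma adjusted p of 0.77, and of 0.0537 with the block, so TFRC did not pass.

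SLC40A1 (ferroportin), the iron exporter, stood at 3.07 and 1.56 FPKM in the control line with vehicle and at 2.86 and 1.19 FPKM with bortezomib. It went from 2.15 and 1.27 to 1.31 and 0.881 FPKM in KO1 and from 3.75 and 3.88 to 2.05 and 1.28 FPKM in KO2. Both KO2 vehicle libraries were the highest of the 12, and KO2 showed the largest fall, to 54.7% and 32.8% of vehicle. The log2 difference over the 3 lines was -0.46 ± 0.20 (SE), with a limma adjusted p of 0.184 without and 0.00336 with the block. That call held in 12 of 12 fits that each left out 1 library with the block on R2.

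GPX4, the selenoenzyme that reduces lipid hydroperoxides, had values of 60.5 and 15.9 FPKM in the control line with vehicle and 52.8 and 18.2 FPKM with bortezomib. It stood at 43.1 and 11.9 against 32.5 and 17.7 FPKM in KO1, and at 52.3 and 19.9 against 35.6 and 20.0 FPKM in KO2. In each line the first pair was lower with bortezomib and the R2 pair was higher. The log2 difference of -0.07 had a limma adjusted p of 0.95 without and 0.692 with the block.

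The genes of the GPX4-independent arms moved in different directions. AIFM2 (FSP1), which regenerates reduced coenzyme Q at membranes, went from 15.3 and 7.12 to 18.8 and 12.1 FPKM in the control line. It went from 10.8 and 5.16 to 16.3 and 9.47 FPKM in KO1 and from 11.7 and 7.09 to 15.7 and 11.6 FPKM in KO2. Every pair was higher with bortezomib, by a ratio of 1.23 to 1.83, and in every line the R2 pair had the larger ratio. The log2 difference was 0.55 ± 0.28 (SE), with a limma adjusted p of 0.243 without and 0.00112 with the block, and it kept the call in 12 of 12 fits that each left out 1 library with the block on R2. AIFM2 lies opposite H2AFY2, and without a stated strand setting reads of the 2 cannot be told apart where they overlap. The spans of TFRC, GCH1 and ACSL4 overlap other genes too, on the same strand for GCH1 (MIR4308 and FDPSP3) and ACSL4 (KCNE5). The part of these overlaps in the values was not tested.

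DHODH, a mitochondrial enzyme of pyrimidine synthesis that passes electrons to coenzyme Q, went the other way. It stood at 3.83 and 5.22 FPKM in the control line with vehicle and at 2.38 and 2.26 FPKM with bortezomib. It went from 3.51 and 4.51 to 2.34 and 3.22 FPKM in KO1 and from 3.76 and 4.55 to 2.27 and 2.43 FPKM in KO2. All 6 bortezomib libraries were below all 6 vehicle libraries. The share of all genes tested that separated in this way is not reported here. DHODH fell by 0.58 on the log2 scale (SE 0.15), with a limma adjusted p of 0.0314 without and 0.000465 with the block. Without the block, leaving out any 1 of 9 libraries ended the call, and with the block on R2 the call held in 12 of 12 such fits.

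GCH1, the first enzyme of tetrahydrobiopterin synthesis, stood at 1.69 and 0.888 FPKM in the control line with vehicle and at 2.55 and 1.40 FPKM with bortezomib. It went from 2.03 and 0.621 to 4.05 and 2.57 FPKM in KO1 and from 2.00 and 1.23 to 4.19 and 2.48 FPKM in KO2. The ratio of bortezomib to vehicle was 1.51 and 1.58 in the control line, 2.00 and 4.14 in KO1, and 2.10 and 2.02 in KO2. At FPKM values this low the log2(FPKM + 1) scale understates the change, and the R2 vehicle value of KO1 rests on 34 reads. The log2 difference was 0.68 ± 0.23 (SE), with a limma adjusted p of 0.0853 without and 0.000317 with the block. That call held in 12 of 12 fits that each left out 1 library with the block on R2.

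ACSL4, which activates polyunsaturated fatty acids for membrane lipids and so favours ferroptosis, stood at 11.9 and 5.87 FPKM in the control line with vehicle and at 13.7 and 5.56 FPKM with bortezomib. It went from 14.5 and 5.50 to 21.9 and 8.67 FPKM in KO1 and from 10.3 and 5.24 to 18.1 and 7.66 FPKM in KO2. The control pairs lay on both sides of no change (ratios of 1.15 and 0.948), and all 4 knockout pairs were higher, by a ratio of 1.46 to 1.77. Over the 3 lines the log2 difference was 0.42 ± 0.38 (SE), with a limma adjusted p of 0.552 without and 0.00295 with the block. That call held in 12 of 12 fits that each left out 1 library with the block on R2.

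**Figure D2:**
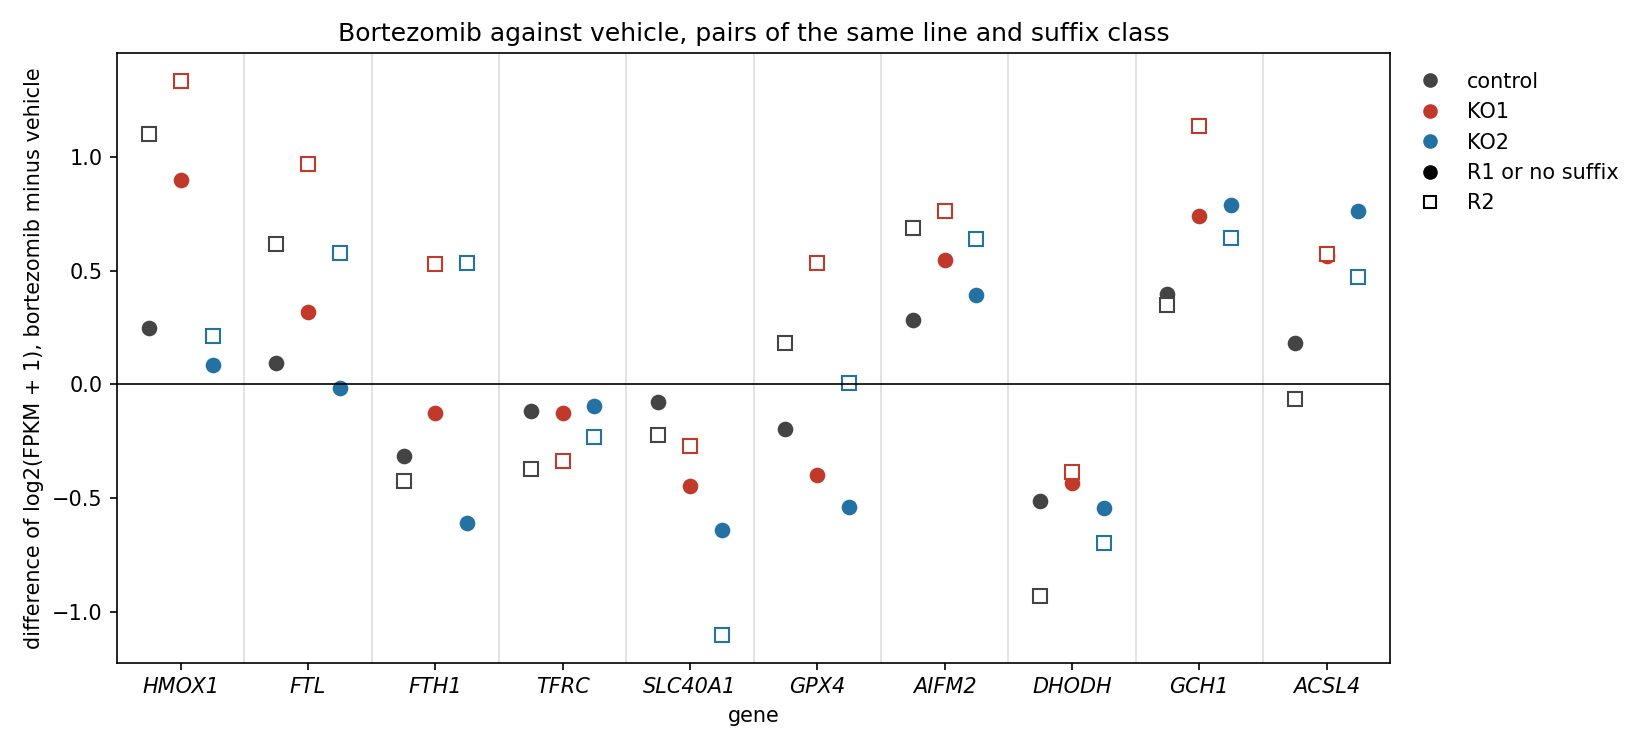
Points are the difference of log2(FPKM + 1) between bortezomib and vehicle for each gene, 1 point for each pair of matching line (colour) and suffix class (filled circle R1 or unnumbered, open square R2), so 6 points a gene. All points of HMOX1, AIFM2 and GCH1 lie above 0 and all points of TFRC, SLC40A1 and DHODH below 0, while FTH1 and GPX4 scatter around 0.

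Taken line by line without the block, none of the 10 genes passed limma's adjusted p of 0.05, against 0.467% of all genes in control cells, 0.238% in KO1 and 0.32% in KO2. At an unadjusted p under 0.05 there were 1, 1 and 2 of them, against 12.3%, 9.46% and 9.59% of all genes. voom on the recovered reads without the block called 0 of the 10 in each line, against 0.344%, 0.221% and 0.254%. With the block, 2 of the 10 passed in the control line (background 32.4%), 4 in KO1 (27.7%) and 5 in KO2 (27.0%). In the control line these were HMOX1 (log2 difference 0.67, limma adjusted p 0.0356) and DHODH (-0.72, 0.00676). HMOX1 did not pass there with the block on R2 (limma adjusted p 0.183). AIFM2 missed the threshold with the replicate block (limma adjusted p 0.0504) and with a common sum of FPKM and the block (0.0565). It passed with the block on R2 (0.0416), with voom and the block (0.0304) and with quantile normalization and the block (0.0274). In KO1 the genes were HMOX1 (1.12, 0.0052), GCH1 (0.94, 0.00365), AIFM2 (0.66, 0.0188) and ACSL4 (0.57, 0.0214). In KO2 they were SLC40A1 (-0.87, 0.00641), GCH1 (0.72, 0.0124), ACSL4 (0.62, 0.0163), DHODH (-0.62, 0.0164) and AIFM2 (0.52, 0.0459).

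Within a line each difference rests on 4 libraries, while its spread is estimated from all 12. In the fits below, HMOX1 in KO1 and AIFM2 in the control line and in KO2 also lost their calls without some libraries of other lines. With the block on R2 and each of the 12 libraries left out in turn, GCH1 in KO1 was called in 12 fits and DHODH in the control line in 11, its call ending without the control bortezomib R2 library (limma adjusted p 0.0554). AIFM2 and ACSL4 in KO1 were called in 9 fits and lost without KO1 vehicle R2, KO1 bortezomib R1 or KO1 bortezomib R2. In KO2, SLC40A1 was called in 9 fits and lost without KO2 vehicle R2 or either bortezomib library. GCH1 and ACSL4 there were called in 9 and lost without KO2 vehicle R1 or either bortezomib library, and DHODH was called in 9 and lost without either vehicle library or KO2 bortezomib R2. HMOX1 in KO1 and AIFM2 in KO2 were called in 5 of the 12, as was AIFM2 in the control line.

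Differences between lines in the response to bortezomib did not pass a test. For the interaction of knockout (mean of KO1 and KO2) with bortezomib, limma called none of the 10 genes with or without the block, and of all genes tested it called 0.0% in both fits. At an unadjusted p under 0.05 there were 0 of the 10 without the block, against 0.943% of all genes, and 2 with it, against 10.7%. These were GCH1 (interaction 0.45 ± 0.20 SE) and ACSL4 (0.53 ± 0.18 SE), with adjusted p of 0.459 and 0.324 from limma. voom with the block called 0.845% of all genes and 0 of the 10. The spread in HMOX1 between KO1 (1.12) and KO2 (0.15) was not tested as an interaction.

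Neighbouring genes of each pathway gave the following counts for bortezomib over the 3 lines, first without and then with the block, against the same backgrounds of 11.6% and 54.9%. Of 13 tested genes of heme synthesis, breakdown and transport, 1 passed without the block and 6 with it, 2 higher and 4 lower. SLC48A1, a heme transporter of endosomes, fell by 1.08 on the log2 scale (SE 0.28, limma adjusted p 0.0352), from a control mean of 18.7 to 8.19 FPKM. BLVRB, which reduces biliverdin, had a log2 difference of 0.68 and ALAS1, the first enzyme of heme synthesis, of 0.41, both called with the block alone (limma adjusted p 0.00108 and 0.0037). PPOX (-0.49) and the heme exporter FLVCR1 (-0.37) were lower with the block.

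Of 14 tested genes of iron uptake, storage and sensing, 0 passed without the block and 7 with it, 3 higher and 4 lower. SLC39A14, a zinc and iron importer, had a log2 difference of 0.77 and the iron regulatory protein gene IREB2 of 0.48. The ferrireductase gene STEAP3 (-0.72) and the importer SLC39A8 (-0.51) were lower. Of 12 tested genes that supply cystine, glutathione and selenoproteins to GPX4, 1 passed without the block and 7 with it, 4 higher and 3 lower. CHAC1, which degrades glutathione, rose by 2.39 on the log2 scale (SE 0.18, limma adjusted p 0.000107), from a control mean of 1.36 to 10.6 FPKM. SLC3A2, the heavy chain of the cystine carrier, had a log2 difference of 0.62, and LRP8, a receptor for selenoprotein P, of -1.07, both called with the block alone (limma adjusted p 0.00109 and 1.44e-05). SECISBP2, which serves selenocysteine insertion, was lower with the block (-0.45).

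Beside AIFM2 and DHODH, 12 genes of the coenzyme Q, vitamin K and pyrimidine arm were tested, and 2 passed without the block and 7 with it, all lower. COQ2, an early enzyme of coenzyme Q synthesis, fell by 0.91 on the log2 scale (SE 0.20, limma adjusted p 0.0195). CAD, the enzyme that acts before DHODH in pyrimidine synthesis, fell by 0.87 (SE 0.19, limma adjusted p 0.0173). The list's median log2 difference was -0.27 against -0.01 over all genes, and medians of the other lists are not reported here. Beside GCH1, SPR, the last enzyme of tetrahydrobiopterin synthesis, had a log2 difference of 0.43, called with the block alone (limma adjusted p 0.00246). The counts for the tetrahydrobiopterin list are not reported here.

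Of 11 tested genes of polyunsaturated lipid peroxidation beside ACSL4, 0 passed without the block and 7 with it, 3 higher and 4 lower. CYB5R1, a reductase, had a log2 difference of 0.93 and the acyltransferase gene MBOAT2 of 0.35, while the desaturase genes FADS2 (-0.81) and FADS1 (-0.77) were lower. Of 10 regulators of these genes, 4 were higher without the block and 8 with it. The small MAF genes MAFF (2.00, limma adjusted p 0.000107), MAFK (1.04, 0.0248) and MAFG (0.93, 0.0275) and the heat shock factor gene HSF1 (0.70, 0.0486) rose without the block. NFE2L1 itself had a log2 difference of 0.87, called with the block alone (limma adjusted p 7.33e-05).

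HMOX1 was the member that differed most between the knockout and control lines. Its vehicle values of 20.7 and 18.5 FPKM in KO1 compare with 147 and 47.1 FPKM in the control line, which is 14.1% and 39.4% of the matched control. In KO2 it was at 32.1% and 90.4% of control with vehicle, so the size of the difference depended on which control library was used. With bortezomib it was at 22.6% and 47.4% of control in KO1 and at 28.7% and 48.4% in KO2. HMOX1 was thus lower than control in 8 of 8 pairs of matching treatment and suffix class, in which each control library serves both knockout lines. Among the 10 genes 2 had 1 direction in all 8 pairs, HMOX1 and AIFM2, against 20.9% of all genes tested.

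In KO1 with vehicle the log2 difference of HMOX1 was -2.03 ± 0.53 (SE), with a limma adjusted p of 0.369, and it ranked 37th from the lowest among 12194 genes. With the block by suffix, which compares KO with control lines mainly through the R2 libraries, it was -1.44 ± 0.25 (SE, limma adjusted p 0.0111). With the block on R2 it was -2.03 ± 0.37 (SE, limma adjusted p 0.0097). In that last fit the call held in 11 of 12 fits that each left out 1 library and ended without KO1 vehicle R1 (limma adjusted p 0.0706). HMOX1 was the only one of the 10 genes to pass with either block, against 5.95% and 7.96% of all genes, and without a block 0 of the 10 passed, against 0.213%. Without a block 1 of the 10 reached 0.05 before adjustment, against 4.41% of all genes. voom with the block called HMOX1 and FTL, against 9.66% of all genes.

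In KO2 with vehicle none of the 10 genes passed limma's test without the block (background 0.23%) or with it (4.91%). The log2 difference of HMOX1 there was -0.88 without and -0.29 with the block, with limma adjusted p of 1 and 0.573. At an unadjusted p under 0.05 there were 0 without the block, against 3.55% of all genes, and 2 with it, TFRC and SLC40A1, against 19.1%. voom with the block called SLC40A1 alone of the 10, against 8.49% of all genes. For the mean of both knockout lines with vehicle the log2 difference of HMOX1 was -1.46 without the block (limma adjusted p 0.572, 0 of 10 called, background 0.344%). With the block it was -0.86 (limma adjusted p 0.0543, 0 of 10 called, background 6.18%). Before adjustment 1 of the 10 reached 0.05 without the block (HMOX1, background 4.6%) and 2 with it (HMOX1 and TFRC, background 21.7%). With the block on R2 HMOX1 passed (limma adjusted p 0.0215, 1 of 10 called, background 8.21%). In that fit the call ended without the unnumbered control vehicle library (limma adjusted p 0.122), KO1 vehicle R1, KO2 vehicle R1 or KO2 vehicle R2.

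With bortezomib the mean of the knockout lines differed from control by -1.50 for HMOX1 without the block (limma adjusted p 0.456, 0 of 10 called, background 0.164%), and it was the 1 gene of the 10 at an unadjusted p under 0.05 (background 5.72%). With the block the difference was -0.90 (limma adjusted p 0.041), and HMOX1 was the 1 gene of the 10 called, against 7.66% of all genes. With the block on R2, 3 of the 10 passed, against 12.7% of all genes. These were HMOX1 (-1.50, limma adjusted p 0.0134), GCH1 (0.54, 0.0285) and ACSL4 (0.49, 0.0272). The last 2 were higher in the knockout lines in all 4 pairs with bortezomib, where 51.3% of all genes tested kept 1 direction. The HMOX1 call there ended without either control bortezomib library (limma adjusted p 0.157 and 0.0613), and GCH1 and ACSL4 were each called in 6 of 12 fits that left out 1 library, all 6 leaving out a vehicle library.

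AIFM2 was lower than control in all 8 knockout pairs by small amounts, from 70.7% to 99.5% of the matched control, and did not pass in either fit (limma adjusted p of 1 and 0.466 for the mean of the knockout lines with vehicle). FTL in KO1 was at 48.2% and 55.6% of control with vehicle and at 56.2% and 71.1% with bortezomib. In KO2 it was at 88.3% and 128% with vehicle and at 81.8% and 125% with bortezomib, on both sides of control. The ratio of FTL to FTH1 was below control in KO1 with vehicle (8.19 and 10.5 against 13.9 and 13.2). In KO2 with vehicle it was above control (19.6 and 17.7). With bortezomib it was below control in KO1 (11.1 and 14.2 against 18.5 and 27.3). In KO2 with bortezomib it lay on both sides of control (29.7 and 18.2). Of the pathway lists, 4 genes were lower in the knockout lines with vehicle with the block and none without it. Of all genes tested, 6.18% were called with the block and 0.344% without it. The 4 were NFE2L1 (-2.73), the knocked-out gene, CYB5R1 (-0.82), a reductase gene of the lipid peroxidation list, STEAP3 (-0.78) and FLVCR1 (-0.64). They came from lists of 10, 11, 14 and 13 tested genes, in that order. The lists of GPX4 supply, coenzyme Q and tetrahydrobiopterin were searched too and gave none of the 4.

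**Figure D3:**
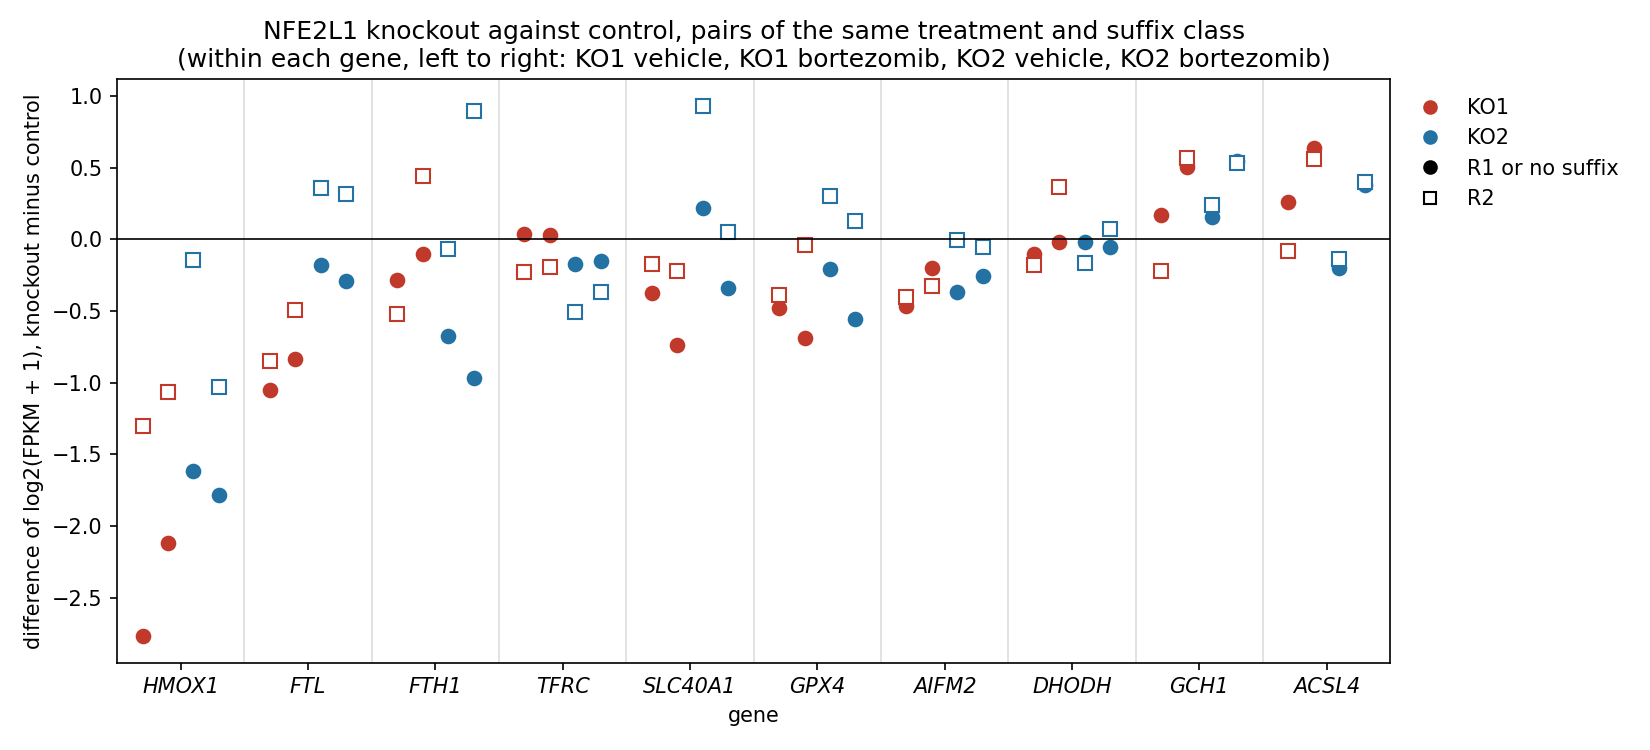
Points are the difference of log2(FPKM + 1) between a knockout line and the control line of the same treatment and suffix class, 8 points a gene, in red for KO1 and blue for KO2. All 8 points of HMOX1 lie below 0, from -2.77 to -0.14. Those of FTL, SLC40A1 and GPX4 are below 0 for KO1 and on both sides for KO2.

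The knockout lines also differed from each other. With vehicle and the block by suffix, HMOX1 (-1.15 ± 0.21 SE), FTL (-1.04 ± 0.23 SE) and SLC40A1 (-0.85 ± 0.17 SE) were lower in KO1 than in KO2, with limma adjusted p of 0.0227, 0.0463 and 0.0317. These are 3 of the 10 genes, against 3.0% of all genes tested. Without the block 0 of the 10 passed, against 0.0656% of all genes, with 1 of the 10 at an unadjusted p under 0.05 (SLC40A1), against 2.35%. The block on R2 called none of the 10 either, against 2.48% of all genes, with limma adjusted p of 0.152, 0.0709 and 0.0579 for the same 3 genes. SLC40A1 with vehicle was below control in both KO1 pairs (69.8% and 81.5%) and above control in both KO2 pairs (122% and 250%).

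The suffix class was a large source of spread for these genes. The mean difference of log2(FPKM + 1) between R2 and its partner was -1.35 for GPX4, -1.11 for FTH1, -1.10 for ACSL4, -1.06 for FTL, -0.72 for AIFM2 and 0.93 for TFRC. Of the 10 genes 6 had the same sign in all 6 groups, against 69.5% of all genes tested. For HMOX1, SLC40A1, DHODH and GCH1 the bortezomib difference was at least as large as the suffix difference. What distinguishes the R2 libraries is not given in the labels, and the larger share of mitochondrial reads goes with them in every group. The part of that share in these differences was not tested.

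**Figure D4:**
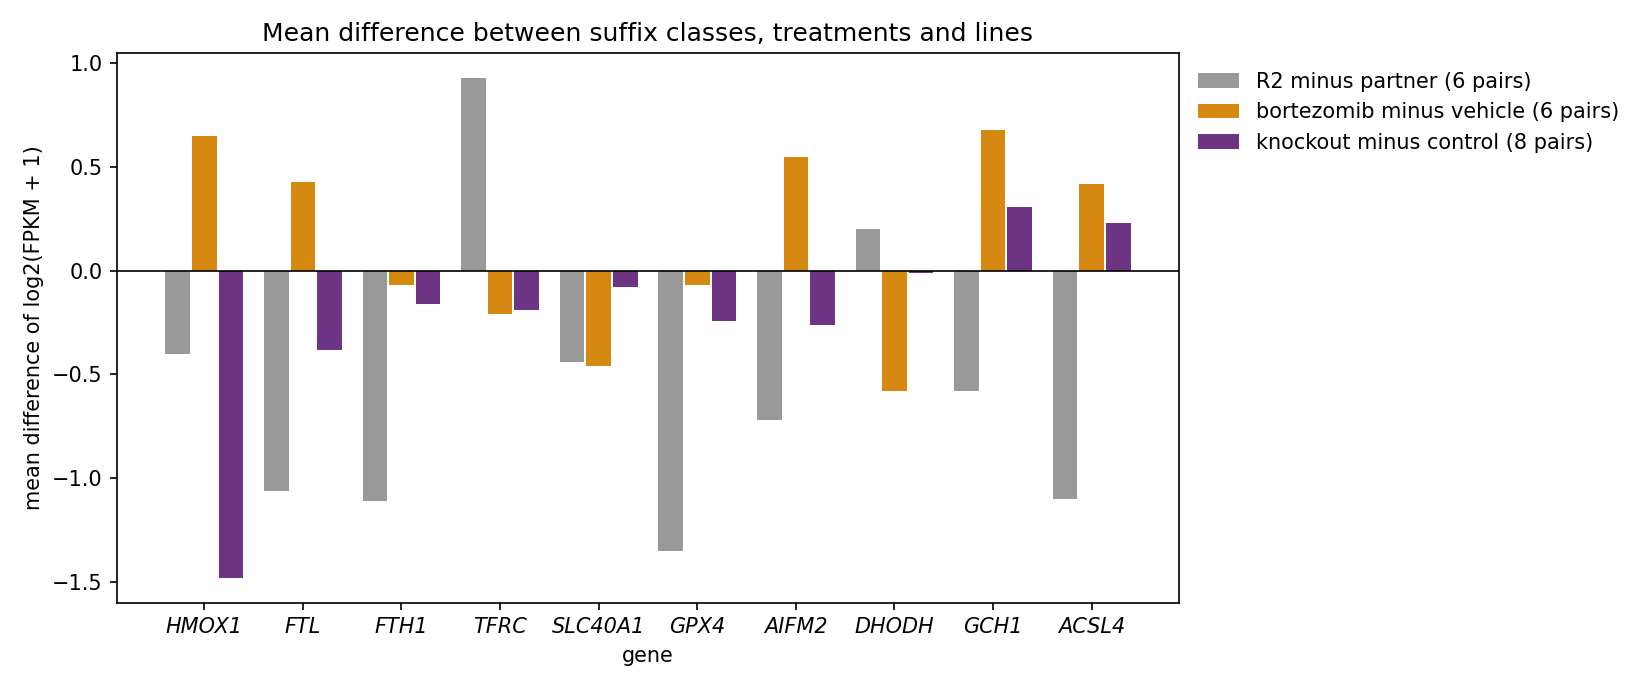
Bars are the mean difference of log2(FPKM + 1) for each gene between R2 and its partner (grey, 6 pairs), bortezomib and vehicle (orange, 6 pairs) and knockout and control lines (purple, 8 pairs). For FTH1, FTL, TFRC, GPX4, AIFM2 and ACSL4 the grey bar is the longest, and for HMOX1 the knockout bar is (-1.48).

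Over the 12 libraries, each taken minus the mean of its suffix class, the tested genes outside the set with the pattern most like HMOX1 were JOSD2 (Pearson's r 0.946), TRMT61B (0.942), HCN2 (0.93), AK4 (0.929) and BCL2L11 (0.928). Within the set r with HMOX1 was 0.785 for FTL, 0.73 for AIFM2 and 0.654 for GPX4, and between -0.329 (DHODH) and 0.263 (FTH1) for the other 6. These values describe 12 libraries that share their lines and treatments, and the 5 genes were picked from 12194.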

How the data were processed

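RNA sequencing was done on 12 A549 libraries, and the deposited table gives FPKM and a gene length for each of 58676 genes. The authors' FPKM multiplied by length gave whole reads for 100% of values (within 0.02 reads). Per the submitters' processing notes CASAVA, STAR 2.5, HTSeq 0.6.1 and DESeq2 were used and the build was hg19. The positions in the table are nevertheless those of GENCODE 29 (GRCh38) for 95.3% of genes. The strand setting is not given in the sources used here.

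limma 3.58.1 (R 4.3.3; eBayes with trend) was fitted to log2(FPKM + 1) of the 12194 genes that averaged at least 1 FPKM, with 1 mean for each of 6 groups and Benjamini-Hochberg adjustment over all genes. This scale understates the change of low genes. The alternatives were replicate blocks (suffix R1, R2 or none; or R2 against the rest), another pseudocount, filters and scalings, voom on the recovered reads, and leaving out each library. Same-suffix libraries of different groups deviated together (r of 0.696 to 0.89 over 15 pairs, with the unnumbered libraries set beside R1, and 0.805 to 0.89 over the 6 pairs of knockout groups), so the suffix in the titles pairs the libraries. The fit was run on simulated data with a suffix effect common to all groups and no difference between lines. That run could not test which block suits these libraries. Sequences are from GENCODE 29 transcripts and RefSeq promoters. Python 3.11.15 and pandas 2.3.3 were used.

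The genes, the pathway lists and the tests were chosen with earlier results of these data known. All 10 genes are named whatever their result. From each list the genes called without the block were named, and with the block the 2 largest rises and falls for bortezomib and for knockout in vehicle. Some genes of the lists are not reported here.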

Additional observations from a re-analysis of the deposited data

Results flagged for a closer look

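With vehicle and the replicate block, 3 genes differed between KO1 and KO2 by a test of the difference itself. The log2 difference (KO1 minus KO2) was -1.15 for HMOX1, -1.04 for FTL and -0.85 for SLC40A1, with limma adjusted p of 0.0227, 0.0463 and 0.0317. SLC40A1 (-0.85) also lay below control in both KO1 pairs and above control in both KO2 pairs, which is a description with no test of its own. None of the 3 passed without the block (limma adjusted p of 1 for each) or with the block on R2 alone (limma adjusted p of 0.152, 0.0709 and 0.0579).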

How the results depend on the processing

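Counts of the 10 genes called depended on the replicate block. For bortezomib in the control line, KO1, KO2 and over the 3 lines they were 0, 0, 0 and 1 without it, and 2, 4, 5 and 7 with the replicate block. The block on R2 gave 2, 4, 5 and 7 (32.5%, 27.9%, 27.0% and 54.9% of all genes tested) and voom with the block 3, 5, 5 and 8 (37.6%, 31.8%, 33.0% and 57.9%). The block with a common sum of FPKM gave 2, 5, 5 and 7 (31.3%, 26.2%, 25.8% and 54.0%) and with quantile normalization 3, 4, 5 and 6 (34.0%, 30.1%, 29.4% and 56.9%), both chosen after seeing the data. For KO1 against control, KO2 against control, their mean with vehicle, their mean with bortezomib and KO1 against KO2, the counts were 0 in each case without the block. With the replicate block they were 1, 0, 0, 1 and 3 (5.95%, 4.91%, 6.18%, 7.66% and 3.0% of all genes) and with the block on R2 1, 0, 1, 3 and 0 (7.96%, 4.89%, 8.21%, 12.7% and 2.48%). With voom and the block they were 2, 1, 1, 1 and 3 (9.66%, 8.49%, 10.1%, 12.5% and 5.96%). With the block, a common sum of FPKM gave 1, 0, 1, 1 and 3 (5.53%, 4.68%, 5.71%, 6.37% and 2.99%) and quantile normalization 1, 0, 0, 0 and 1 (6.95%, 4.85%, 6.72%, 9.55% and 2.65%). A filter at a mean FPKM of 5 removed DHODH, GCH1 and SLC40A1 and left 0 of 7 called over the 3 lines, against 9.51% of all genes.

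Without the block, leaving out 1 library gave 0 to 2 called over the 3 lines and turned the direction of 6 of 30 differences (those of the 10 genes over the 3 lines and, elsewhere, those called without a block or with either block), since it leaves 1 group with 1 suffix class. The log2 difference for bortezomib then ranged from -0.14 to 1.48 for HMOX1 and from -0.02 to 0.99 for AIFM2 in the control line. It ranged from -0.06 to 1.19 for ACSL4 in KO1, and over the 3 lines from -0.36 to 0.22 for FTH1 and from -0.38 to 0.24 for GPX4. For ACSL4 in knockout against control lines with bortezomib it ranged from -0.09 to 1.08. Left with 1 library, a group was assumed to vary like the others. Over all 10 genes and 10 comparisons, pseudocount, scaling, filter and voom without the block turned the direction of 5 of 100 differences. These were GPX4 for bortezomib in the control line, TFRC in KO1 with vehicle, FTH1 and DHODH in KO1 against KO2, and TFRC in the interaction, none of them called, at most 0.095 in size before and 0.044 after. Depth limits GCH1 and SLC40A1 most, with 34 and 72 reads at the lowest.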
